A study of Mus musculus with 2 samples.

Results

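The Notch pathway was followed through 10 genes of the mouse retina, chosen by name from the 25778 genes of the count table, and all 10 were found there. They are the ligand genes Dll1 and Jag1, the receptor genes Notch1, Notch2 and Notch3, the nuclear partner Rbpj, and the target genes Hes1, Hes5, Hey1 and Hey2. Single-cell RNA sequencing of whole retina at 30 days gave 1 library per genotype, Ptbp1-Ctrl (Chx10-Cre) and Ptbp1-KO (Chx10-Cre;Ptbp1lox/lox), each from 1 mouse. Both mice carried Chx10-Cre, a transgene active in the progenitors of the retina, and in the Ptbp1-KO mouse the cells that descend from these lose the floxed part of Ptbp1. This gene encodes a splicing regulator that keeps neuronal exons out of transcripts. With 1 library per genotype, no difference between genotypes has a replicate check. The intervals in brackets are 95% intervals for counting error alone.

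In Notch signaling, a ligand of the Delta or Jagged family on a cell's surface binds a Notch receptor on a neighboring cell. The receptor is cleaved, and its intracellular part enters the nucleus, joins the DNA-binding protein RBPJ and turns on repressors of the Hes and Hey families. In the developing retina the pathway holds progenitors back from becoming neurons and favors Müller glia (MG), the radial glia that remain in the mature tissue.

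RBPJ binds DNA at short sites that contain GTGGGAA or the shorter TGGGAA. RefSeq promoters (GRCm38.p6, 250 bases before to 50 after the start of the gene) matched 8 of the 10 genes, and Hes1 and Hey1 had no entry. The promoters of Hes5 and Hey2 were those that held GTGGGAA when both strands were searched, and each held it 2 times, against 0 in the other 6 genes. Among all 32851 promoters of that length, 6.38% held it at least 1 time and 0.256% at least 2 times. These 2 promoters are shown because, among those of the 8 genes, they were the ones that held GTGGGAA. Each is printed 5′ to 3′ on the strand of its gene, with the matches in capitals (TTCCCAC where the match is on the opposite strand).
Hes5, chr4:154960673-154960972, plus strand: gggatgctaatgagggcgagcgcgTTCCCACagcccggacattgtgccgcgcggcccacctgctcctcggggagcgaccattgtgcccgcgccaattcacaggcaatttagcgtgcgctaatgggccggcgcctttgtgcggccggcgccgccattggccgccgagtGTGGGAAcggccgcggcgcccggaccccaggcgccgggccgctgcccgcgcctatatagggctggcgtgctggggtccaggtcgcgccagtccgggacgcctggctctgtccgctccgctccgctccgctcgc
Hey2, chr10:30842734-30843033, minus strand: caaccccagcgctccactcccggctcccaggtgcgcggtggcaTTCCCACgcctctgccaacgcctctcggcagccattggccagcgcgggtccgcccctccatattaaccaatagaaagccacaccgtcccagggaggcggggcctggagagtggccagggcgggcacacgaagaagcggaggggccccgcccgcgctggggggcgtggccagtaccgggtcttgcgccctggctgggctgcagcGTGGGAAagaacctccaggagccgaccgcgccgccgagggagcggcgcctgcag
The matches began 226 and 83 bases before the start of Hes5 and 207 and 4 bases before the start of Hey2, counted from the RefSeq start. For Hes5 this equals the start of the gene in the GENCODE annotation whose positions are given with each gene, and for Hey2 it lies inside that interval, near its end. Inside their intervals too, and far from the ends for Notch1 and Rbpj, lie the RefSeq starts of Notch1, Notch2, Jag1, Rbpj and 1 of the 2 of Dll1. In each gene 1 match lay on the gene's strand and 1 on the opposite strand. The shorter TGGGAA, which these matches contain, was also found in both promoters listed for Rbpj and was present in 25.6% of all promoters. The E-box CACGTG (7.15% of all promoters) was in none of the 8 genes' promoters. The N-box CACNAG (42.5%) was in those of Notch1, Notch2 and Notch3 and in 1 of 2 listed for Dll1.

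There were 16421 cells in Ptbp1-Ctrl and 14522 in Ptbp1-KO, with 32758836 and 35328593 unique molecular identifiers (UMIs, each marking 1 captured transcript). Levels were expressed in CPM, for which the UMIs of a gene and all UMIs were summed over the cells of a type in a library and their quotient scaled to 1000000. As a check of the labels, Ptbp1 in MG stood at 49.8 CPM (294 UMIs) in the control and at 1.18 CPM (6 UMIs) in the mutant. The methods name 1 female mouse per genotype, but each library held at least 43.1 CPM of each of the Y-linked genes Ddx3y, Eif2s3y, Kdm5d and Uty, and at most 6 UMIs of Xist, which is made from an inactive X chromosome. A set of 63 cell barcode sequences occurred in both libraries. The 8 MG markers (Sox9, Apoe, Glul, Rlbp1, Slc1a3, Aqp4, Kcnj10 and Vim) summed to 23403 and 24302 CPM in the cells named MG and to 208 and 196 CPM in rods, with Ptbp1-Ctrl first and Ptbp1-KO second, as in all pairs of values. The median depth of the 1720 and 1184 MG was 3333 and 4178 UMIs, against 1088 and 1288 UMIs in rods.

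A pair of the receptors and most of the targets had their highest level in MG. Hes1, Notch1, Notch2, Hes5 and Hey2 were at least 4-fold higher in MG than in neurons (rods, cones, bipolar, amacrine, retinal ganglion and horizontal cells summed) in both libraries. Of all genes with at least 50 UMIs, 9.2% passed the same fold. The size of these folds depended on which cells and neurons were taken. Over the alternatives and both libraries the log2 of MG over neurons ranged from 4.04 to 6.62 for Notch1, from 3.28 to 5.42 for Notch2, from 5.55 to 7.36 for Hes1, from 3.48 to 7.27 for Hes5 and from 3.33 to 6.34 for Hey2. Each was lowest when MG were set against the single type with the highest level among rods, cones, bipolar and amacrine cells. Both ligands were lower in MG than in neurons, and Rbpj lay near the neuronal level (1.12-fold and 1.34-fold). Cell types had been assigned by the authors from the expression of these same cells, so the differences between types are a description with no test.

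**Figure D1:**
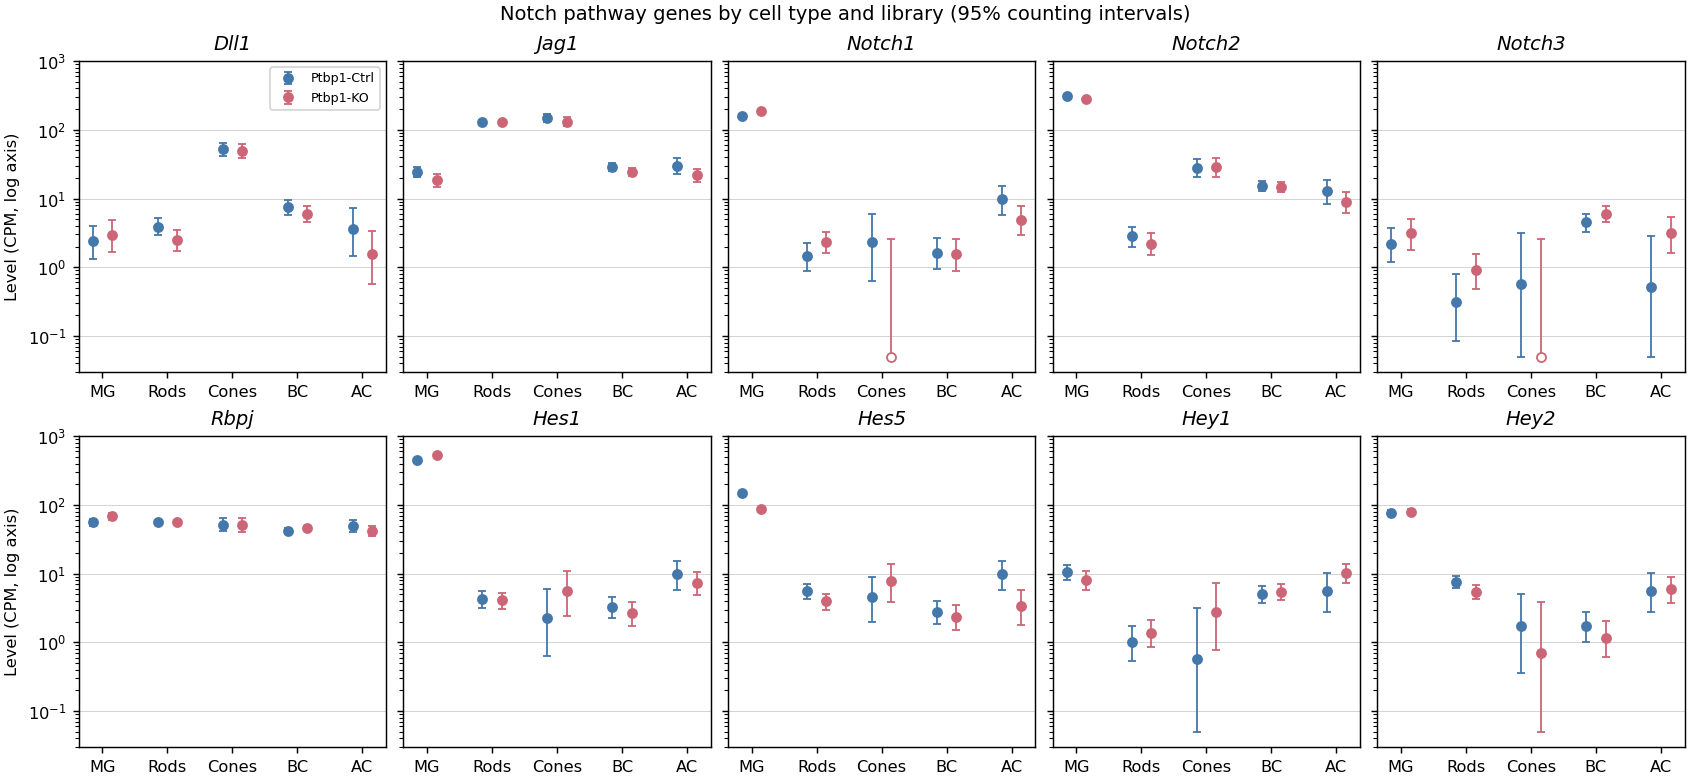
Level of each of the 10 genes in MG, rods, cones, bipolar cells (BC) and amacrine cells (AC), in CPM on a log axis, with Ptbp1-Ctrl in blue and Ptbp1-KO in red. Points are 1 library each, bars are 95% Poisson intervals cut at the lower edge of the axis, and open points at the lower edge mark 0 UMIs. Notch1, Notch2, Hes1, Hes5 and Hey2 stand highest in MG, Dll1 and Jag1 in cones or photoreceptors, and Rbpj lies between 41.5 and 67.8 CPM throughout.

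The ligand gene Dll1 (chr17:15367354-15376872) encodes Delta-like 1. It was a cone transcript, at 52.1 CPM (42.0 to 64.0) and 49.8 CPM (38.9 to 62.8) in cones. Bipolar cells (BC) followed at 7.46 and 5.96 CPM, below cones beyond counting error in both libraries. In MG, 14 and 15 UMIs gave 2.37 and 2.95 CPM. MG, rods and amacrine cells (AC) formed the lower end of the order, where no neighbors were resolved. Within the BC, cluster 21 of the authors' clustering had the highest level in both libraries, 31.4 CPM (19.4 to 48.0) and 28.0 CPM (16.0 to 45.4), with intervals that overlapped those of 3 other BC clusters in each library, clusters 19 and 20 in both.

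Jag1 (chr2:137081456-137116644), which encodes Jagged 1, was shared by both photoreceptor types. Its level was 148 CPM (131 to 168) and 131 CPM (113 to 151) in cones, and 131 CPM (125 to 138) and 129 CPM (123 to 135) in rods. Cones and rods were not resolved from each other in either library, and both lay above BC (28.8 and 24.3 CPM), AC (29.6 and 22.04 CPM) and MG (24.6 and 18.3 CPM). BC cluster 21 again had the highest level among BC clusters, 92.8 CPM (71.1 to 119) and 85.7 CPM (63.4 to 113), apart from all other BC clusters except cluster 20 in Ptbp1-KO. The Jag1 level of MG was 18.7% and 14.2% of that of rods, and the summed level of 8 rod markers in MG was 15.8% and 13.6% of that of rods. How much of the Jag1 signal of MG came from rod RNA was not tested. Retinal ganglion cells (RGC) had 93.9 and 98.0 CPM of Jag1 on 20 and 18 UMIs, and their rod markers summed to 27346 and 32852 CPM, beside 45783 and 41123 CPM in rods. In RGC and horizontal cells (HC) no other of the 10 genes had more than 4 UMIs in a library.

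The receptor gene Notch1 (chr2:26457903-26516663) was at 159 CPM (149 to 170) in MG of Ptbp1-Ctrl and 186 CPM (175 to 199) in MG of Ptbp1-KO. In neurons it was at 2.23 and 2.28 CPM, so that MG were 71.4-fold and 81.7-fold higher. AC came next at 9.71 and 4.93 CPM, resolved from MG above and from the type below in both libraries. The AC of cluster 14 held 17 of the 19 and 12 of the 19 Notch1 UMIs of AC (25.4 and 12.4 CPM). They also carried MG markers at 5.76% and 4.63% of the level of MG, against 0.699% to 1.61% in the other AC clusters. Whether the Notch1 UMIs of this cluster came with RNA of MG was not tested.

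Notch2 (chr3:98013527-98150361) was at 311 CPM (297 to 325) and 280 CPM (265 to 295) in MG, and at 9.68 and 8.56 CPM in neurons, a 32.1-fold and 32.7-fold difference. Cones followed at 28.1 CPM (20.8 to 37.1) and 28.8 CPM (20.6 to 39.0). BC had 15.2 and 14.7 CPM, which rested mainly on clusters 5 (35.8 and 35.0 CPM) and 10 (45.7 and 36.3 CPM). Rods had the lowest level, at 2.84 and 2.21 CPM.

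Notch3 (chr17:32120820-32166852) was sparse and followed another order, with 64 and 103 UMIs in all cells. BC had the highest level, 4.49 CPM (3.27 to 6.03) and 5.96 CPM (4.56 to 7.65), resolved from the 2.20 and 3.15 CPM of MG. BC cluster 10 held 11.02 and 20.3 CPM on 7 and 14 UMIs. Outside the retina's neural cells, Notch3 is known from pericytes and smooth muscle of vessels. Of the 63 and 100 cells with a Notch3 UMI, 1 and 2 had UMIs of at least 3 of the 8 pericyte and smooth muscle markers.

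Rbpj (chr5:53466152-53657362), which encodes the DNA-binding partner of the cleaved receptor, was the most evenly spread member. In Ptbp1-Ctrl it ranged from 41.5 CPM in BC to 56.1 CPM in rods, and no neighbors in that order were resolved, although the intervals of its ends (BC, 37.5 to 45.7, and rods, 52.1 to 60.4) were apart. MG had 55.5 CPM (49.7 to 61.9). In Ptbp1-KO it ranged from 41.7 CPM in AC up to 67.8 CPM (60.9 to 75.4) in MG, where MG lay above rods (57.1 CPM, 53.3 to 61.2) and the others were not resolved from their neighbors.

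The target genes encode basic helix-loop-helix repressors. Hes1 (chr16:30064384-30067796) was at 454 CPM (437 to 472) and 540 CPM (520 to 560) in MG against 4.17 and 4.10 CPM in neurons, a 109-fold and 132-fold difference. Hes5 (chr4:154960923-154962371) was at 147 CPM (137 to 157) and 86.1 CPM (78.2 to 94.6) in MG against 4.69 and 3.47 CPM in neurons, or 31.3-fold and 24.8-fold. Hey2 (chr10:30832359-30842801) was at 76.4 CPM (69.5 to 83.7) and 79.0 CPM (71.5 to 87.2) in MG against 4.84 and 3.80 CPM in neurons, or 15.8-fold and 20.8-fold. These 3 targets were resolved from rods, cones, BC and AC in both libraries, whereas HC were too few for such an order.

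Hey1 (chr3:8663359-8667256) did not follow the other targets. It was at 10.5 CPM (8.05 to 13.5) and 8.06 CPM (5.79 to 10.9) in MG, 3.61-fold and 1.998-fold above neurons. AC had 5.62 and 10.1 CPM, and MG and AC were not resolved from each other in either library. AC cluster 6 held 9 and 37 Hey1 UMIs, or 10.6 and 19.2 CPM.

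At single-cell level, depth was made equal by drawing 1000 UMIs from each cell, which left out 57 and 11 MG and 4155 and 3126 rods. Hes1 was then found in 30.5% and 35.6% of MG, Notch2 in 27.4% and 25.9%, Notch1 in 15.3% and 19.6%, Hes5 in 10.6% and 6.82%, and Hey2 in 6.98% and 8.10%. Without thinning these shares were 60.9% and 70.5%, 60.6% and 62.6%, 39.4% and 50%, 23.5% and 16.8%, and 21.9% and 27.1%, in the same order. In rods the thinned shares of the same genes lay between 0.162% and 0.745%, with Hey2 the highest in both libraries. Hey2 stood at 7.59 and 5.38 CPM in rods. How much of these rod shares came with RNA of MG was not tested. A cell with a UMI of Notch1 or Notch2 and a UMI of Hes1, Hes5 or Hey2 was seen among 14.3% (12.6 to 16.0) and 18.7% (16.5 to 21.02) of MG, and among 56.5% and 63.9% without thinning. None of the 5903 and 6175 thinned rods was such a cell, which allows shares with these UMIs of up to 0.0508% and 0.0486% at this depth. Without thinning, 0 of 10058 and 1 of 9301 rods were such cells.

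**Figure D2:**
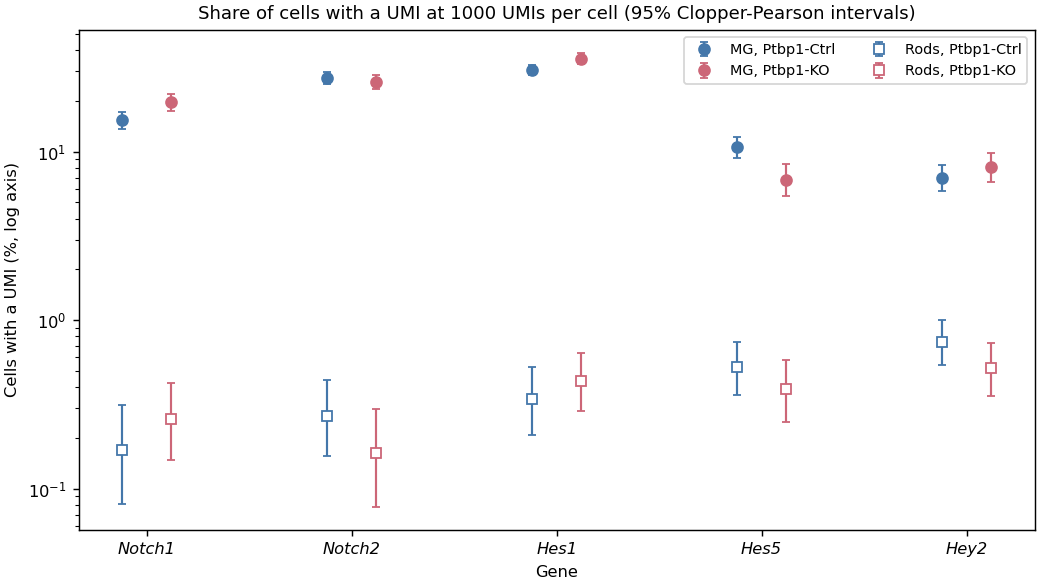
Share of cells with at least 1 UMI of each of the 5 genes that were 4-fold higher in MG, at 1000 UMIs per cell, in percent on a log axis. Filled circles are MG and open squares are rods, blue is Ptbp1-Ctrl and red is Ptbp1-KO, and bars are 95% Clopper-Pearson intervals. MG lie between 6.82% and 35.6% and rods between 0.162% and 0.745%. In MG the intervals of the 2 libraries are apart for Notch1, Hes1 and Hes5, with Hes5 lower in Ptbp1-KO. They measure the sampling of cells within 1 mouse per genotype and not a spread between mice.

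The genotypes were compared next, to ask whether loss of Ptbp1 altered Notch pathway transcripts in MG. Hes5 was the member with the largest difference. It had 868 UMIs in MG of Ptbp1-Ctrl (147 CPM) and 438 UMIs in MG of Ptbp1-KO (86.1 CPM), and the log2 ratio of the mutant to the control level was −0.77 (−0.94 to −0.60). Of the 10 genes, 8 had the 50 UMIs in MG over both libraries that were asked for, and Hes5 was the 1 gene at or below −0.5, whereas 0 were at or above 0.5. Of all 12080 genes with that depth in MG, 4.6% lay at or below −0.5 and 6.36% at or above 0.5, and read against these shares a count of 1 in 8 does not set the members apart. The median log2 ratio of the 8 members was −0.05, and that of all 12080 genes was −0.00.

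The receptors differed in opposite directions and by less. Notch1 was higher in Ptbp1-KO by a log2 ratio of 0.22 (0.09 to 0.36), and Notch2 was lower, at −0.15 (−0.25 to −0.05). Hes1, the other major Hes target, was higher at 0.25 (0.17 to 0.33), where Hes5 was lower. Rbpj was higher at 0.29 (0.07 to 0.51), and the ligand Jag1 was lower at −0.43 (−0.82 to −0.04), beside summed rod markers of 7236 and 5585 CPM in the same cells. Intervals thus lay above 0 for 3 members and below 0 for 3 of the 8, against 12.5% and 12.6% of all genes tested in MG, many of which had fewer UMIs and hence wider intervals. Those of Hey2 (0.05, −0.15 to 0.25) and Hey1 (−0.38, −0.99 to 0.21) held 0, and the 13 and 16 UMIs of Notch3 and the 14 and 15 of Dll1 were too few for a ratio. For Hey1, Notch3 and Dll1 a difference was not detectable at this depth. The interval of Hey2, on 451 and 402 UMIs, lay wholly between −0.5 and 0.5.

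**Figure D3:**
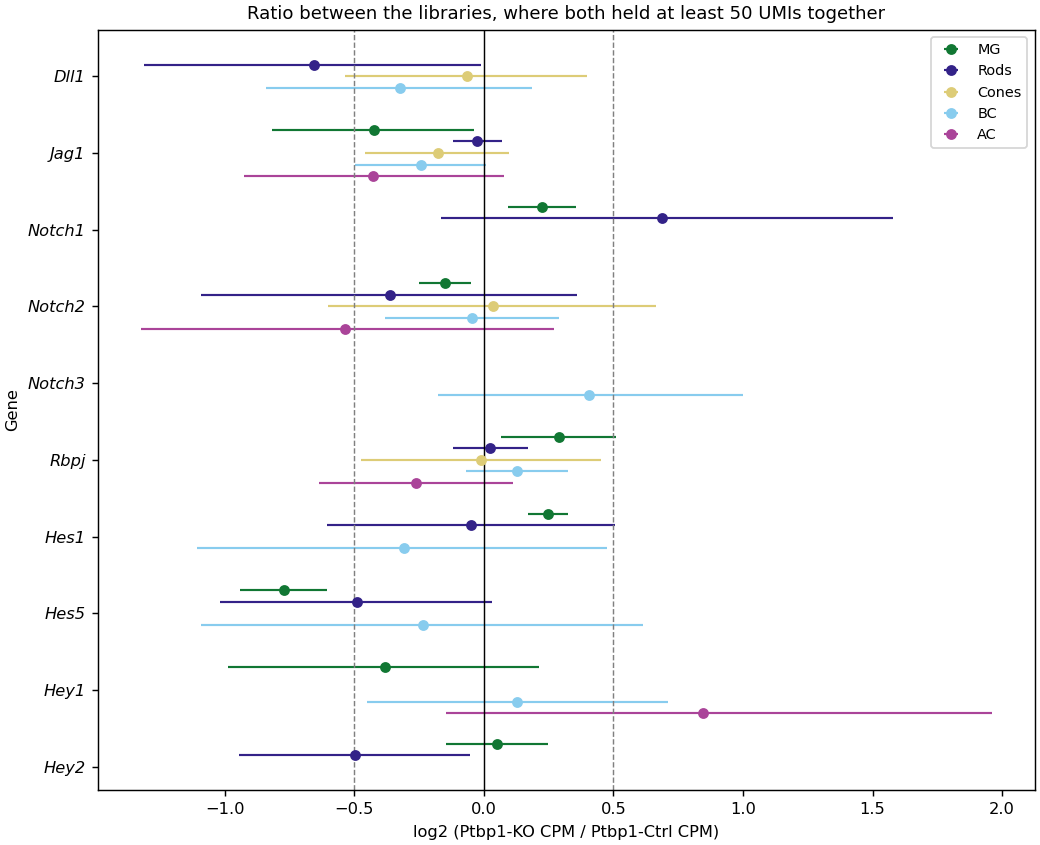
Ratio of the Ptbp1-KO level to the Ptbp1-Ctrl level on the log2 scale for each gene and cell type with at least 50 UMIs over both libraries. Points are ratios of 1 library to 1 library, bars are 95% exact conditional binomial intervals, the solid line marks 0 and the dashed lines mark −0.5 and 0.5. Hes5 in MG, at −0.77, is the point whose whole interval lies beyond a dashed line.

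The Hes5 difference was seen in the main MG cluster (cluster 4, 1386 and 994 cells), where 165 CPM (154 to 176) in Ptbp1-Ctrl stood against 92.1 CPM (83.4 to 101) in Ptbp1-KO. The log2 ratio there was −0.84 (−1.01 to −0.67). In the small cluster 22 (89 and 54 cells) the levels were 53.4 CPM (35.5 to 77.2) and 58.9 CPM (36.9 to 89.2), with a ratio of 0.14 (−0.73 to 0.998). Cluster 16 (245 and 136 cells) held 14 and 5 Hes5 UMIs, too few for a ratio. Hes1 was higher in Ptbp1-KO in the main cluster (487 and 572 CPM), and its ratios in clusters 16 (0.32, −0.12 to 0.76) and 22 (0.11, −0.26 to 0.49) held 0.

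Measures of cell identity and dissociation were set beside the Hes5 value. All 8 MG markers had at least 50 UMIs, their median log2 ratio in MG was 0.04, and 0 of them were past 0.5 in either direction. Sox9, a transcription factor of MG, was the lowest of them, with 583 and 493 CPM, at −0.24 (−0.32 to −0.17). Of the 14 genes of the dissociation stress response, 13 had enough UMIs, with a median of 0.08 and 1 past the fold, Atf3 (9.14 and 5.31 CPM) at −0.78 (−1.51 to −0.09). The transcript Gm20421, annotated across the start of Hes5 on the opposite strand, had 4 and 0 UMIs in MG. It was counted as a gene of its own, as was 0610009E02Rik (58 and 80 UMIs in MG), which overlaps the end of Notch1 on the opposite strand. How reads of the shared stretches were assigned was not given in the sources used here. The part of these measures in the Hes5 value was not tested, and differences between animals, dissociations and libraries cannot be told apart from the genotype.

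The UMIs of Hes5 were unevenly spread over MG. In the main cluster of Ptbp1-Ctrl the mean was 0.596 UMIs of Hes5 and 0.597 UMIs of Notch1 per cell, so the spread of these 2 genes can be set side by side. Hes5 had 0 UMIs in 1008 cells and 3 or more in 109, whereas Notch1 had 0 in 790 and 3 or more in 53. The variance over the mean was 3.01 for Hes5 and 1.13 for Notch1 in Ptbp1-Ctrl, and 3.21 and 1.24 in Ptbp1-KO. The means of these genes were less alike in Ptbp1-KO, at 0.413 and 0.861 UMIs per cell. Hes1 had values of 2.25 and 3.18, Notch2 of 1.29 and 1.36, and Hey2 of 1.11 and 1.16. With depth made equal at 1000 UMIs the gaps were smaller, at 1.60 and 1.53 for Hes5, 1.42 and 1.54 for Hes1 and 1.05 and 1.03 for Notch1, and Hes5 was then not above Hes1 in Ptbp1-KO. At 1000 UMIs per cell, 12.1% and 7.55% of the main cluster had a Hes5 UMI, with 1.38 and 1.36 UMIs per such cell. Since a cell counted here has at least 1 UMI, a difference in the level per cell could hardly show in that number at this depth.

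**Figure D4:**
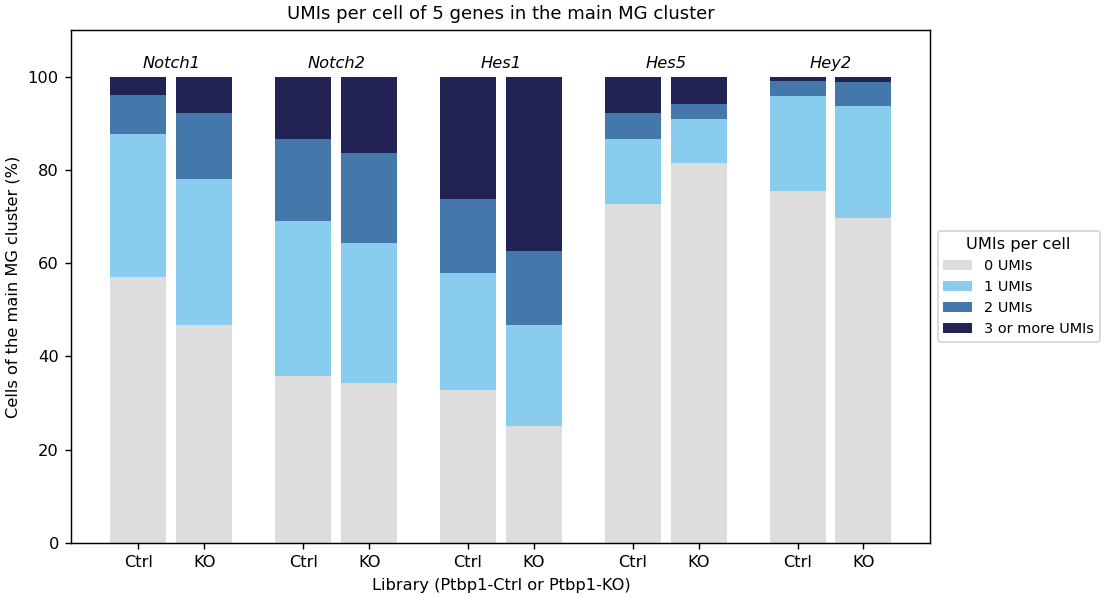
Percent of cells of the main MG cluster with 0, 1, 2, or 3 or more UMIs of 5 genes, at the depth sequenced, with 1 stacked bar per library (1386 cells of Ptbp1-Ctrl and 994 of Ptbp1-KO). Hes5 has 3 or more UMIs in 7.86% of Ptbp1-Ctrl cells beside 72.7% with none, whereas Notch1, of like mean, has 3.82% and 57.0%.

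In neurons few members were past the fold. In rods 8 members had 50 UMIs, and Notch1 was higher on 19 and 34 UMIs (0.69, −0.16 to 1.58), whereas Dll1 was lower on 51 and 36 UMIs (−0.66, −1.31 to −0.01). Over the alternatives these ratios ranged from 0.57 to 2.69 and from −1.28 to −0.58. Of all genes in rods, 11.5% were past the fold upward and 1.88% downward. Hey2 in rods had a ratio of −0.50 (−0.94 to −0.05), just short of the fold, and Hes5 one of −0.49 (−1.02 to 0.03). DESeq2 scaling, which lowered all ratios in rods by 0.11 on the log2 scale, took Hey2 to −0.61 and Hes5 to −0.60, past the fold. The edgeR scaling, with a shift of −0.094 in rods, took both past the fold too. In AC, 4 members had 50 UMIs, and Hey1 (0.85, −0.15 to 1.96) and Notch2 (−0.54, −1.32 to 0.27) were past the fold with intervals that held 0. With cells thinned to 1000 UMIs the ratio of Notch2 in AC was −0.05, short of the fold. The shares were 5.5% and 4.36% among all genes of AC. In cones 0 of 4 members and in BC 0 of 8 were past the fold, against 6.51% and 4.96% of all genes in cones and 4.99% and 3% in BC, upward and downward. Under some alternatives Notch2 in cones reached −0.62. In BC, Dll1 then reached −0.79, Jag1 −0.54, Hes5 0.81 and Hey1 0.59.

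The photoreceptor ligand Jag1 had narrow intervals there. Its ratio was −0.02 (−0.12 to 0.07) in rods and −0.18 (−0.46 to 0.10) in cones. Dll1 in cones had a ratio of −0.07 (−0.53 to 0.40), an interval that leaves room for differences as large as the fold in 1 direction. Rbpj had ratios of 0.03 in rods, −0.01 in cones, 0.13 in BC and −0.26 in AC, each with an interval that held 0.

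The wider pathway was read from a list of 77 genes, of which 76 were matched (Dlk1 was not analysed here) and 64 had at least 50 UMIs in MG. Of these, 0 were higher and 3 were lower past the fold, and their median log2 ratio was −0.01. Among all genes with that depth in MG, 6.36% were higher past the fold, beside 0 of these 64. A count of 3 in 64 is near the 4.6% of all genes that were lower past the fold in MG. The 3 were Hes5, Poglut1 (25.6 and 17.3 CPM, log2 ratio −0.56, −0.96 to −0.17), which encodes an enzyme that adds glucose to Notch receptors, and Tle2 (18.5 and 12.2 CPM, log2 ratio −0.60, −1.07 to −0.14), which encodes a corepressor that Hes proteins recruit. By role, the medians lay between −0.20 for 2 ligands and 0.07 for 10 genes listed as targets. Beside Hes1, Hes5, Hey1 and Hey2, the latter took in Hes6, Bhlhe40, Bhlhe41, Id1, Id2 and Id3. Of the 71 genes with at least 50 UMIs in all cells, 12 passed a fold of 4 in MG over neurons in both libraries. Of all genes with that depth, 9.2% passed it, and 5 of the 12 were members. The other 7, named after their values were seen, were Lfng, a glycosyltransferase that modifies Notch, Aph1c, a gamma-secretase subunit, Nrarp, a feedback inhibitor, Maml2, a coactivator, and Id1, Id2 and Id3, partners of helix-loop-helix factors.

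**Figure D5:**
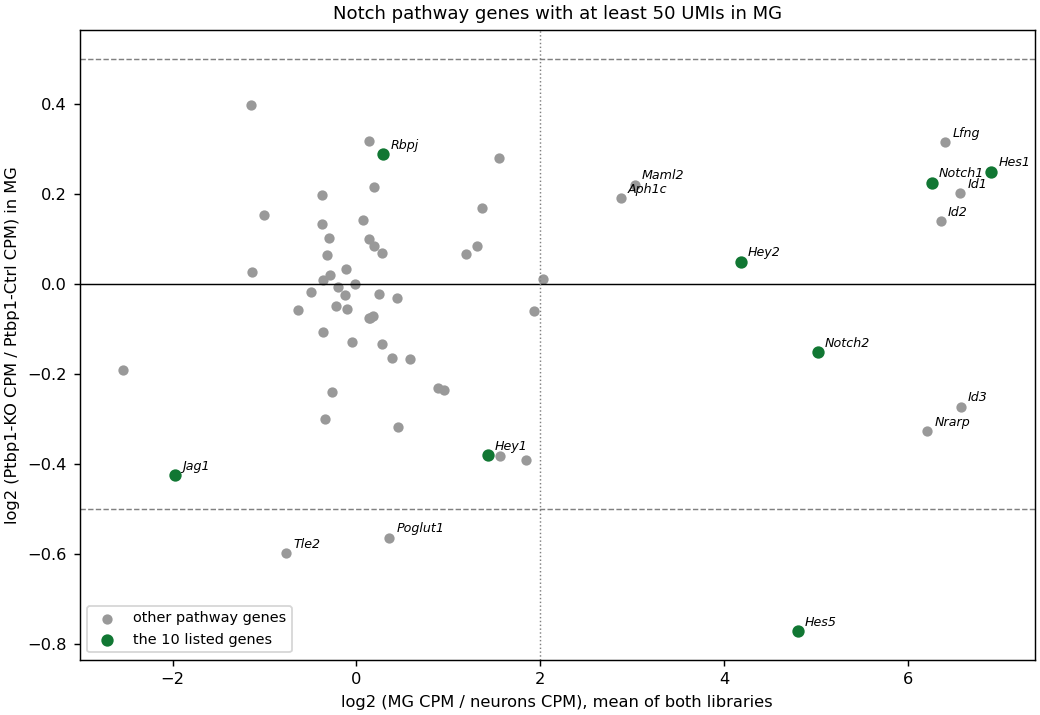
Each of the 64 pathway genes with at least 50 UMIs in MG, placed by its log2 level in MG over neurons (mean of both libraries, x axis) and its log2 ratio of Ptbp1-KO over Ptbp1-Ctrl in MG (y axis), with the 8 members that had that depth in green. Dashed lines mark −0.5 and 0.5, the dotted line marks a 4-fold MG level, and genes past a line are named. Of the genes right of the dotted line, Hes5 alone lies below −0.5.

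The genes whose levels ran most like each member were sought over 10 profiles (5 cell types in each library), by Pearson r of log2(CPM + 1), among 10460 genes with a mean of at least 10 CPM. Profiles of 1 library share their depth and their free RNA, and MG against the rest dominated several of them, so r is a description. Closest to Notch1 were Tor1b, Kcnj10 and Lhx2 (r from 0.993 to 0.996), and to Notch2 Marc2, Sec61b and Fos (0.983 to 0.991). For Hes1 they were S1pr1, Pmp22 and Sbspon (0.996 to 0.997), for Hes5 Rras, Rrh and D630033O11Rik (0.986 to 0.991), and for Hey2 Evi5, Tcf7l2 and Ptpra (0.980 to 0.984). Dll1 ran with Gm42697, Fabp7 and Cckbr (0.980 to 0.990), and Jag1 with Uqcc3, A930004D18Rik and Prcd (0.996 to 0.998). Rbpj had the loosest matches, Foxo3, Pkn2 and Med12 (0.930 to 0.942), Hey1 was nearest to Nagk, Psmb10 and Ebf4 (0.975 to 0.982), and Notch3 had under 200 UMIs and was left out. Between members, Hes1 and Hes5 had an r of 0.97, Hes1 and Notch1 of 0.96, and Jag1 and Hey1 of −0.93.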

How the data were processed

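Droplet libraries (10x Genomics 3′ chemistry) of dissociated retina were made from 1 Ptbp1-Ctrl and 1 Ptbp1-KO mouse, grouped by the genotype in the labels. The authors aligned reads to mm10 with Cell Ranger 7.0.1 and filtered and clustered cells in Seurat 4, per the submitters' notes and methods. The gene annotation and the use of intronic reads were not given in the sources used here. The deposited table holds raw UMI counts for 25778 genes in 30943 cells. The deposited cell table gives the sample, cluster, cell type, count totals and percent of mitochondrial UMIs of each cell, and 2 further columns of per-cell values were not used. Cell types were used as deposited, and no doublets were removed beyond the authors' filters.

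The 10 genes and all gene lists were chosen with earlier results of these data known. Named genes were the 10 members, pathway genes past the fold in MG, the 3 genes most like each member with at least 200 UMIs, Ptbp1, Xist and 4 Y-linked genes. Further pathway genes, single markers and stress genes, overlapping transcripts and neighbors of Hes5 were named after their values were seen.

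UMIs were summed per library and cell type. Levels have Poisson, ratios conditional binomial and shares Clopper-Pearson exact intervals at 95%. Values were called past the fold at an absolute log2 ratio of 0.5 or more, given 50 or more UMIs in both libraries together. A count of 0 allows up to 3 counts. No test between genotypes was run, since cells of 1 animal are not replicates.

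Alternatives were edgeR 4.0.16 and DESeq2 1.42.0 scaling factors, cells thinned to 1000 UMIs, cells of at least 2000 UMIs, subtraction of a free RNA profile estimated from markers of other types, removal of the 10% of cells with the highest Scrublet score (scanpy 1.11.5), cells within the authors' cluster borders, minimums of 20 and 200 UMIs, and other sets of neurons. The ratio function was tested on simulated data. Gene positions are from GENCODE M21 (GRCm38, the assembly called mm10), and promoters are from RefSeq. Python 3.11.15 and R 4.3.3 were used.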

Additional observations from a re-analysis of the deposited data

How the results depend on the processing

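No paired analysis was possible because the labels give 1 library per genotype and no replicate numbers, and for the same reason no library could be left out. The count of 5 genes at least 4-fold higher in MG was 5 under the other alternatives that bore on it but 1 under background subtraction. The neuronal counts of the other 4 (Notch1, Notch2, Hes1 and Hes5) were at or under 0 after subtraction in at least 1 library, so that no ratio could be formed. The median log2 ratio of the members in MG moved from −0.05 to 0.20 with cells thinned to 1000 UMIs and to 0.14 with a minimum of 20 UMIs, where the set of members with enough UMIs differed. The 0 pathway genes higher past the fold in MG became 3 with thinned cells (Dner, Adam17 and Maml1), 1 after background subtraction (Sirt1) and 2 with a minimum of 20 UMIs (Notch3 and Hes7). The count of 3 lower genes stayed between 2 and 4. In MG the ratio of Hes5 ranged from −0.84 to −0.67, of Hes1 from 0.18 to 0.31, of Notch1 from 0.16 to 0.37, of Rbpj from 0.23 to 0.34, of Notch2 from −0.22 to −0.07 and of Jag1 from −0.56 to −0.37. That of Hey2 ranged from −0.01 to 0.20. For Jag1 no ratio could be formed after background subtraction, since its count in MG of Ptbp1-KO was then at or under 0. Of 217 alternative values of single genes between genotypes, 206 stayed within the interval of the main value, and 0 of the values past the fold changed sign. Of 132 alternative values of MG over neurons, 77 stayed within that interval and 0 past the fold changed sign. Depth limited Notch3 and Dll1 in MG, all members in RGC and HC, and most targets in neurons.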

Other observations

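Cells of the main MG cluster with 3 or more Hes5 UMIs were set beside cells with none, a choice made after the uneven spread of Hes5 had been seen. In Ptbp1-Ctrl the level of Hes1 was 680 CPM (603 to 763) in the 109 cells with 3 or more and 463 CPM (441 to 486) in the 1008 cells without Hes5. In Ptbp1-KO it was 591 CPM (501 to 692) in 59 such cells and 556 CPM (532 to 581) in the 811 without. The intervals of Hes1 were apart in Ptbp1-Ctrl and overlapped in Ptbp1-KO, and the difference between genotypes was not tested. Those of Notch1, Notch2, Hey2 and Rbpj overlapped between the 2 sets of cells in both libraries.

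The receptor Notch1 was at 168 CPM in cells without Hes5 and at 160 CPM in cells with 3 or more in Ptbp1-Ctrl, and at 186 and 200 CPM in Ptbp1-KO. Glul, the glutamine synthetase of MG, was at 10462 and 10491 CPM in the same sets of Ptbp1-Ctrl and at 10616 and 10850 CPM in those of Ptbp1-KO. Sox9 was at 633 CPM (607 to 659) and 715 CPM (637 to 801) in Ptbp1-Ctrl, and at 519 CPM (496 to 543) and 622 CPM (529 to 725) in Ptbp1-KO, higher in cells with 3 or more Hes5 UMIs in both libraries with overlapping intervals. The median depth of these cells was 3439 and 3700 UMIs in Ptbp1-Ctrl and 4350 and 4249 UMIs in Ptbp1-KO.

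The genes within 500 kb of Hes5 were read after its value was known. Of 8 with at least 50 UMIs in MG, the median log2 ratio was −0.16, 0 lay at or above 0.5 and 1 lay at or below −0.5, Pex10 at −0.76 (−1.50 to −0.05) on 51 and 26 UMIs. Pank4, the nearest, was at −0.25 (−0.60 to 0.09). Morn1 was at −0.43 (−1.12 to 0.24) and Prkcz at −0.42 (−0.83 to −0.0035), and Ski, a regulator of TGF-beta signaling, was at 0.37 (0.14 to 0.59).

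Kdr and Flt1, receptors of vascular endothelial growth factor that are also markers of vessel cells, were at 643 and 709 CPM and at 876 and 812 CPM in MG. The other 6 endothelial markers lay between 0.169 and 4.52 CPM there.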
